A study of Mus musculus with 14 samples.

Results

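The AP-1 and immediate early response was followed through single cells from mouse bone by 10 genes: Fos, Fosb, Jun, Junb, Egr1, Ier2, Atf3, Dusp1, Zfp36 and Btg2. They were chosen by name, and each of the 10 names matched 1 row of the 9558 gene rows in the expression table. The table holds 14 cells, numbered 1 to 14 as in the labels, that were sorted for red fluorescence and then picked singly under a microscope. The donors were adult C57BL/6 mice of the genotype Prrx1-CreERT;Tomato, in which a tamoxifen-dependent Cre made under the Prrx1 promoter switches on the Tomato reporter, and the mice had received tamoxifen at 2 mg per 30 g of body weight once a day for 3 days. The marrow had been flushed out before the bone was minced and digested with collagenase. No animal is named and all cells share 1 genotype and treatment, so together they make up 1 sample. Conditions could not be tested against each other, and no p-value is given.

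Immediate early genes are transcribed within minutes of a growth factor, a stress or mechanical injury, without the need for new protein. MAP kinases phosphorylate transcription factors that already sit at these genes, and the mRNAs that follow are short-lived. Proteins of the Fos and Jun families pair through leucine zippers to form the transcription factor AP-1, while other early products such as Dusp1 and Zfp36 shut the response down again. Tissue digestion and cell sorting are widely known to induce this programme. Cells that had not been digested or sorted were not analysed here, so levels already present in the living bone and levels gained during handling cannot be told apart.

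Levels are on the scale of the deposited table, read as log2(FPKM + 1), where FPKM is fragments per kilobase of transcript, scaled to the mapped fragments of the library. Detection here means a level of 1 or more, which is an FPKM of 1. The cells hold nearly the same set of values, as after quantile normalization: the number of rows at the detection level or above was 5066 in each of them, a different set in each cell, and the largest value was 14.58 in each. A level therefore ranks a gene within its cell, and a difference in total RNA between cells cannot be seen. Between 7304 and 8027 rows were above 0 per cell. The table gives levels and no counts, so library depth is unknown.

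The 10 genes were widely detected and most stood high within their cells. Of the 10, 8 were detected in all 14 cells, against 15.8% of all rows, and all 10 were detected in at least 7 cells, against 51.7%. The median over the cells was 5 or more for 9 of them, against 12.1% of all rows. Counted over cells and genes together, 132 of 140 values were at the detection level or above, or 94.3%, where the share over all rows was 53.0%. In 7 of the 14 cells every one of the 10 genes was detected. Without Btg2, the other 9 were detected together in 13 cells, the exception being cell 4, in which Egr1 was below the detection level.

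**Figure D1:**
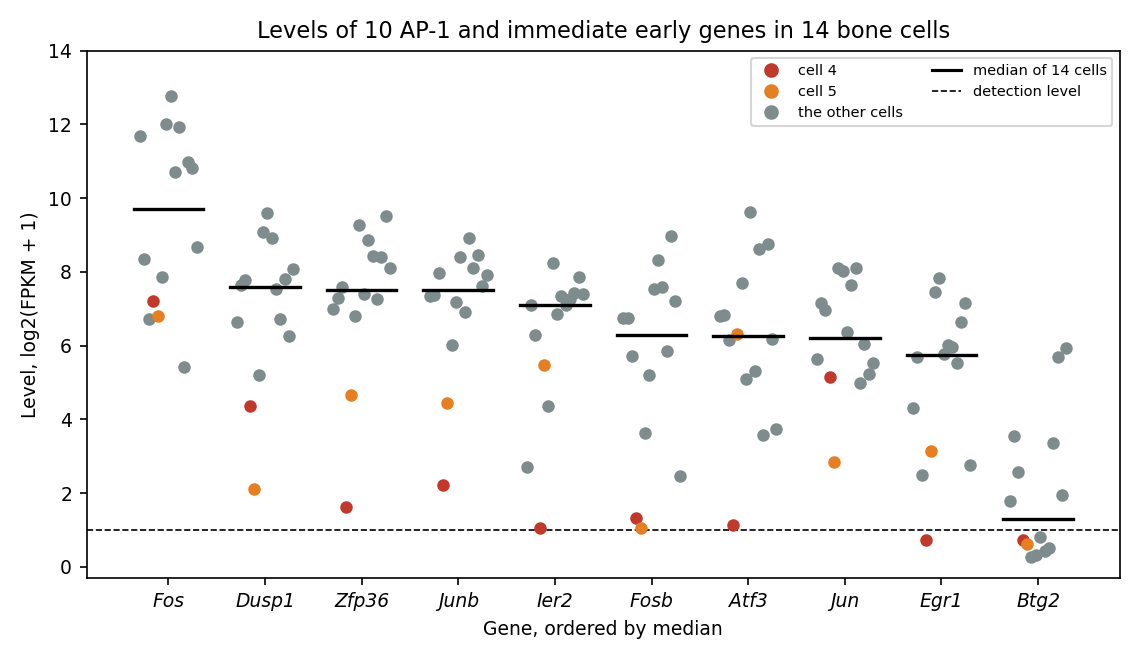
Level of each gene, as log2(FPKM + 1), in each of the 14 cells (points, placed left to right by cell number within a gene), with the median as a bar and the detection level of 1 as a dashed line. Fos has the highest median at 9.70 and Btg2 the lowest at 1.30, and cells 4 and 5 lie at or near the bottom for most genes.

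Fos, which encodes the AP-1 subunit that cannot pair with itself and needs a Jun partner, had the highest level of the 10. Its lowest, median and highest levels were 5.42 in cell 11, 9.70, and 12.77 in cell 8. By its mean over the cells it ranked 117 of 9558 rows, and in 13 of the 14 cells it lay in the top 10% of rows. A gap divided its values. In cells 1, 7, 8, 9, 10, 12 and 13 Fos lay between 10.71 and 12.77, and in the other cells, which were 2, 3, 4, 5, 6, 11 and 14, it lay between 5.42 and 8.68. It was the highest of the 10 genes in 11 cells, the exceptions being cells 3, 6 and 11.

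Fosb encodes the second Fos family protein of the group. Its levels ran from 1.07 in cell 5 through a median of 6.30 to 8.98 in cell 12. Cells 4 and 14 were also low, at 1.32 and 2.45. Within a cell, Fos exceeded Fosb in 13 of 14, by a median of 4.28 log2 units (SD 2.19, range -0.43 to 6.81), and cell 11 had the reverse order. That median was 3.44 with the division by transcript length undone.

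The Jun genes encode the partners of the Fos proteins, and Jun can also pair with itself. Jun had the smallest spread of the 10, with an SD of 1.51 and levels from 2.84 in cell 5 through a median of 6.21 to 8.12 in cell 6. Junb, whose product is a weaker activator than Jun on many AP-1 sites, ran from 2.22 in cell 4 through 7.50 to 8.93 in cell 10. Junb was the higher of the pair in 10 cells and Jun in 4, namely cells 4, 6, 7 and 9. The difference Jun minus Junb had a median of -1.30 (SD 1.84, range -3.12 in cell 11 to 2.94 in cell 4). Undoing the division by transcript length brought this median to -0.51. It stayed below 0, so the size of the difference, but not the direction of its median, rests in part on that division. Fos exceeded Jun in 12 cells, by a median of 3.48, or 2.88 with the length division undone.

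Reads from an overlapping gene on the other strand cannot be separated from those of a member unless counting used strand, and no source used here says whether it did. Junos, an antisense RNA at Jun, reached detection in 4 cells and had a median of 0. Prdx2, whose 3′ end overlaps that of Junb, had a median of 8.46 (4.07 to 9.64), and its Spearman correlation with Junb over the 14 cells was 0.19. Ergic1 starts within the far upstream end annotated for Dusp1. It had a median of 2.77 and a correlation of 0.72 with Dusp1. The levels of Jun, Junb and Dusp1 are uncertain to the extent that such reads were shared.

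Egr1 and Atf3 are inducible transcription factors outside the Fos and Jun families. Egr1, a zinc finger protein made downstream of MAP kinase and serum response factor, ran from 0.74 in cell 4 through 5.74 to 7.84 in cell 7. It was below 3 in cells 3, 4 and 14. Atf3, a leucine zipper protein of the stress response that can pair with Jun, ran from 1.13 in cell 4 through 6.26 to 9.62 in cell 8, the widest range of the 10 genes. Cells 11 and 14 were next lowest, at 3.57 and 3.75. Atf3 is the only member whose level in cell 5, at 6.32, lay above its median over the 14 cells. Ier2, a small nuclear protein induced in most cell types, ran from 1.06 in cell 4 through 7.10 to 8.24 in cell 7. Cell 1 was the only other cell in which Ier2 lay below 4, at 2.70, although Fos was 11.70 in that cell.

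Dusp1, Zfp36 and Btg2 act to end the response. Dusp1, a phosphatase that switches off MAP kinases, ran from 2.10 in cell 5 through 7.59 to 9.61 in cell 8. Zfp36 (tristetraprolin) binds AU-rich sites in the tails of early mRNAs and brings about their decay. It ran from 1.61 in cell 4 through 7.50 to 9.52 in cell 13, and in 12 cells it stood in the top 10% of rows, more cells than for any member but Fos. Btg2, an antiproliferative protein that recruits the CCR4-NOT deadenylase, differed from the other 9. It was detected in 7 cells and ran from 0.26 in cell 6 through 1.30 to 5.93 in cell 14, and it was the lowest of the 10 genes in 12 cells. Cells 12 and 14 held it at 5.69 and 5.93, cells 2 and 11 at 3.55 and 3.36, and the other 10 cells at 2.57 or less. With each cell left out in turn, the median of Btg2 lay between 0.82 and 1.78, on both sides of the detection level.

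**Figure D2:**
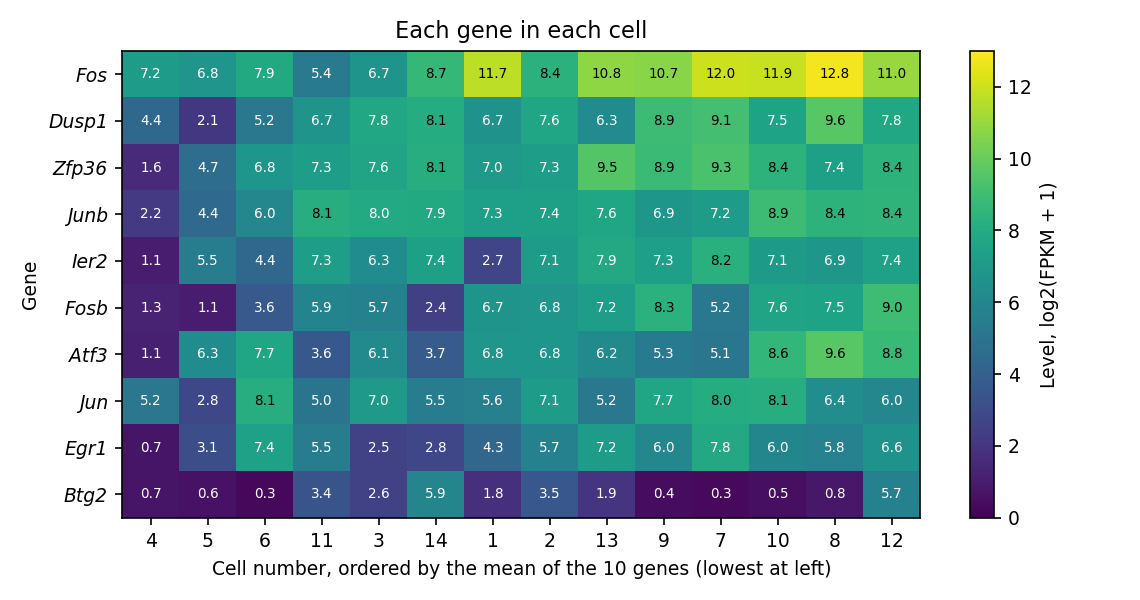
Level of each gene (rows, ordered by median) in each cell (columns, ordered by the mean of the 10 genes), as log2(FPKM + 1). Cell 4 at the left edge is dark in every row but Fos, Jun and Dusp1, and Btg2 at the bottom is bright in cells 12 and 14 alone.

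The members share features that did not enter their choice. In GENCODE M21 (GRCm38) Fos (ENSMUSG00000021250) occupies bases 85473890 to 85477273 of chromosome 12, plus strand, and Jun (ENSMUSG00000052684) bases 95049034 to 95052222 of chromosome 4, minus strand. Fosb and Zfp36 lie on chromosome 7, Junb and Ier2 on chromosome 8, Atf3 and Btg2 on chromosome 1, and Dusp1 on chromosome 17. The main transcript of each of the 10 has 4 exons or fewer, against 19.6% of 9279 protein-coding rows, and Jun, Junb and Ier2 have a single exon. The span from first to last annotated base was under 5 kb for 6 of the 10, against 11.2% of those rows. Dusp1 and Atf3 span 56.5 and 47.7 kb because their annotation includes distant upstream starts. The median length of the main transcript was 2426 bases for the members and 2862 for those rows.

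AU-rich pentamers, written ATTTA on the DNA strand that matches the mRNA, are the core of the sites through which Zfp36 and its relatives shorten the life of early mRNAs. At least 3 of them stood in the 3′ untranslated region of 6 of the 10 main transcripts, against 36.3% of the protein-coding rows, at a median region length of 1001 and 974 bases. The 7-base form TATTTAT was found in 7 of the 10, against 28.3%. Zfp36 and Dusp1 each held 3 copies of it, Fos 2, and Fosb, Jun, Atf3 and Btg2 held 1 each, while Junb, Egr1 and Ier2 held none. The pair of overlapping pentamers in Fos is shown as an example, from base 637 to 661 after the stop codon, with the pentamers in capitals.
Fos: ttttattgtgttttcaATTTATTTA

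The start regions were read from RefSeq (GRCm38.p6) for 8 members, those of Ier2 and Egr1 not being used. Windows of 250 bases before the start site were searched on both strands for the full cAMP response element TGACGTCA, its core TGACG, the AP-1 site TGANTCA, the TATA box TATAAA and the CArG box of serum response factor. The core is contained in the full element. The full element was present in Dusp1 and Btg2, against 1.55% of 32851 start regions of the same length. The core was present in 6 of the 8 (Fos, Fosb, Junb, Atf3, Dusp1 and Btg2), against 17.8%. A CArG box was present in Zfp36 alone, against 1.47%, a TATA box in Fos alone, against 12.4%, and the AP-1 site in none, against 6.75%. A match describes letters only, and sites outside the window, such as more distant serum response elements, were not searched. The TATA box of Fos and the core of Atf3 are not shown. Stretches that carry a cAMP element or the CArG box are printed below for 6 members. They run 5′ to 3′ on the gene's own strand, with the cAMP elements and the CArG box in capitals.
Fos, chr12:85473749-85473840, plus strand: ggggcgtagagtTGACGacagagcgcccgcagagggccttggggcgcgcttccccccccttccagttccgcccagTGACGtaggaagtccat
Fosb, chr7:19310089-19310117, minus strand: tggagttgcgggTGACGcaagcgcggggg
Junb, chr8:84978838-84978866, minus strand: gcttcctgacagTGACGcgagccgcctcc
Dusp1, chr17:26508596-26508675, minus strand: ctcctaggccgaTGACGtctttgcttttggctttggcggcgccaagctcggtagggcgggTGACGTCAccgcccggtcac
Zfp36, chr7:28379265-28379298, minus strand: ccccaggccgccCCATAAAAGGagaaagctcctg
Btg2, chr1:134079302-134079333, minus strand: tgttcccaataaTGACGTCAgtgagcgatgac

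Fos and Dusp1 thus each carry 2 separated copies of the core, from -129 and -66 in Fos and from -191 and -143 in Dusp1, counted from the base before the start site as -1. Btg2 and Dusp1, which hold the full element, had a Spearman correlation of 0.14 over the 14 cells and medians of 1.30 and 7.59.

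The mean of the 10 levels was taken in each cell. It had a median of 6.42 and ran from 2.55 in cell 4 and 3.75 in cell 5 to 7.92 in cell 12. The other 12 cells lay between 5.74 and 7.92, and the gap between cell 5 and the next cell, cell 6, was larger than the SD over the 14 cells of 1.49. Cells 4 and 5 were also the lowest pair when ranks within the cell were averaged in place of levels, with Fos left out, with the length division undone, and with pseudocounts of 0.1 and 10. In cell 4, Egr1 and Btg2 were below the detection level, as were 47.0% of all rows, and only Fos at 7.21 and Jun at 5.16 were at 5 or more. In cell 5 only Fos (6.80), Ier2 (5.48) and Atf3 (6.32) were at 5 or more. In cell 12 all 10 were. Over all rows and cells the share of values at 5 or more was 18.8%, so the 2 of 10 in cell 4 were near that share.

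Among the 8 members detected in all 14 cells, the lowest value lay in cell 4 or cell 5 for 7, all but Fos. Over the 1506 rows detected in all cells the same was true of 17.3%. Since these cells stand out by the mean of the same members, the count follows from that and nothing is read from it. Cells 4 and 5 had 7863 and 7943 rows above 0, toward the upper end of the range of 7304 to 8027 but not at it. They were more like each other than any other pair of cells over the 4383 rows above 0 in every cell, with the members left out. Their Spearman correlation across these genes was 0.763, the next pair reached 0.626, and the median of the 91 pairs was 0.490. Over all 9548 other rows the pair came 6th of 91, at 0.591. Genes are not independent replicates, and no test was made.

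The means of the blood cell lists were also low in cells 4 and 5, and that of matrix genes was not. The mean of 20 fibroblast matrix genes (such as Dcn and Sparc) came to 6.89 and 7.86 in the 2 cells, against 4.12 to 9.42 in the other 12. The mean of 10 neutrophil genes was 2.62 and 3.36 in these cells, below all others (4.18 to 9.04), with 6 and 7 of the 10 detected. Mpo was at 0 in cell 4 and Elane in cell 5, but these genes were detected in only 5 and 3 of the 14 cells. The granule gene Camp was detected in all 14. The mean of 11 pan-haematopoietic genes was 1.85 and 1.62, against 1.95 to 9.78, with 6 detected in each and none at 0, although the defining leukocyte gene Ptprc, at 1.08 and 0.12, lay above its median of 0.46 in cell 4. The mean of 4 macrophage genes was 1.11 and 2.53, against 2.32 to 10.71, with Cd68 at 0 in cell 4. Osteoblast genes were low as well, with means of 1.39 and 0.99 against 1.58 to 7.06. The mean of 5 endothelial genes was 1.09 and 0.44, against 0.69 to 3.51 with a median of 2.10, and Emcn and Egfl7 were at 0 in cell 5. The mean of 7 stromal niche genes was 3.05 and 2.40, against 2.05 to 6.97 with a median of 3.90. The part that RNA from blood cells, which also express early genes, has in the levels was not tested. The Spearman correlation with the member mean was 0.07 over 14 cells and -0.48 over the other 12 for the neutrophil list, 0.14 and -0.36 for the pan-haematopoietic list, and 0.15 and -0.23 for the macrophage list, so its sign depends on cells 4 and 5.

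**Figure D3:**
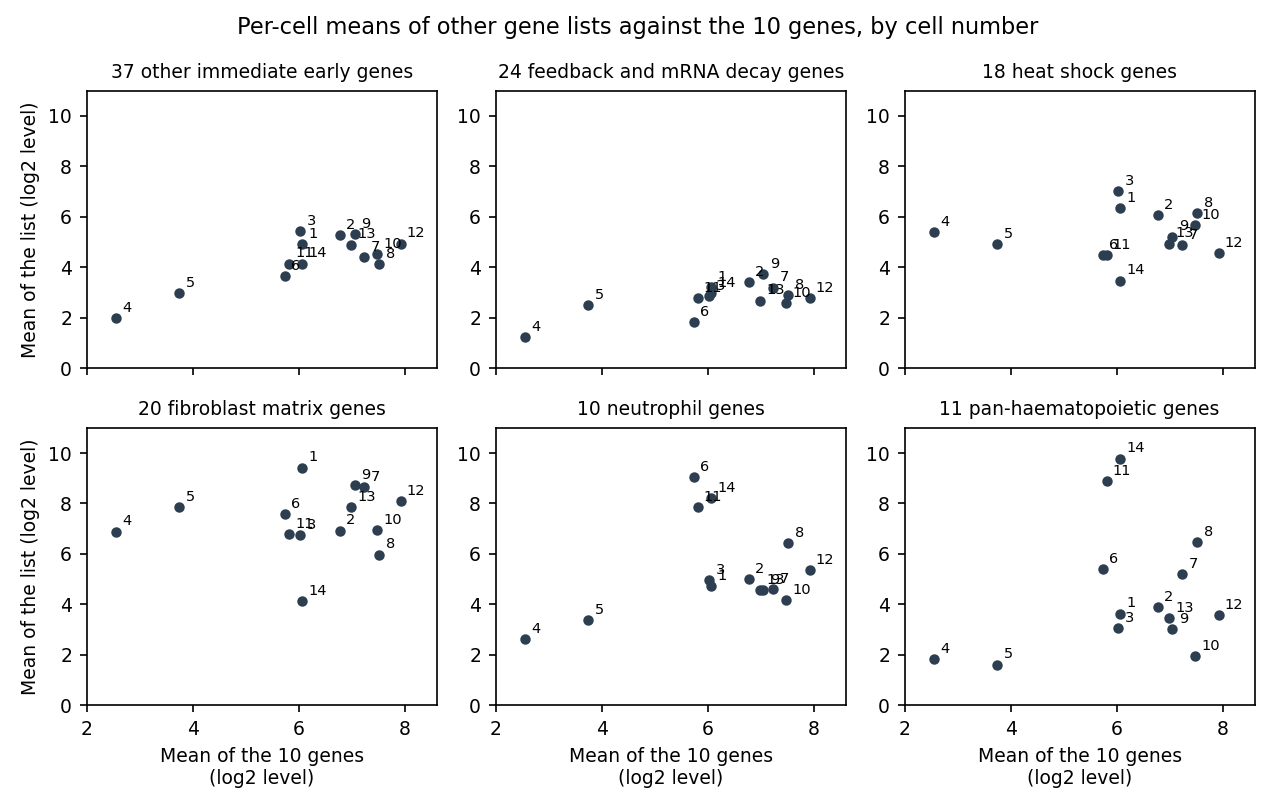
Mean level of 6 other gene lists (vertical axes) against the mean of the 10 early genes (horizontal axes), both as log2(FPKM + 1), with 1 numbered point per cell. Cells 4 and 5 lie apart at the left in every panel, at the bottom for early, neutrophil and pan-haematopoietic genes and within the range of the other cells for heat shock and matrix genes.

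Cells set apart by other markers were read side by side. Cells 6, 10 and 13, which had the highest means of 10 osteoblast genes, had member means of 5.74, 7.47 and 6.98. Cells 2 and 7, the highest in the leptin receptor gene Lepr, had 6.78 and 7.23. In cells 6, 8, 11 and 14, earlier results on these cells put blood cell genes above mesenchymal genes. Their median member mean was 5.93 (5.74 to 7.52), and that of the other 10 cells was 6.88 (2.55 to 7.92). Cells 3, 4, 11, 12 and 13, which earlier results separate from the rest by which genes are at 0, had a median member mean of 6.02 (2.55 to 7.92) and the other 9 cells 6.78 (3.75 to 7.52). Between these sets Fos had medians of 7.21 and 10.71 and Btg2 of 2.57 and 0.62, with overlapping ranges, and Btg2 was detected in 4 of the 5 cells and 3 of the 9.

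The wider pathway was read from 5 lists. Of 39 other immediate early genes, 37 had a row. Detection in 7 cells or more was seen for 30 of them (81.1%, against 51.7% of all rows) and in every cell for 13 (35.1%, against 15.8%), and the median of their medians was 4.72, against 0.96 over all rows. The highest by mean were the growth arrest genes Gadd45g (median 9.09) and Gadd45b (8.75) and the survival gene Ier3 (8.16), and the lowest were Egr2, detected in 2 cells, and Ier5l, detected in 3. The mean of the list was lowest in cells 4 and 5, at 1.96 and 2.98, against 3.65 to 5.42 in the others. Its Spearman correlation with the member mean was 0.48 over the 14 cells and 0.17 without cells 4 and 5. Of the 13 genes detected in all cells, 8 (61.5%) had their lowest value in cell 4 or 5, against 17.3% of the rows detected in all cells.

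The remaining AP-1 and related zipper genes stood lower than the members. With 19 genes measured, detection in 7 cells or more was seen for 11 (57.9%) and in every cell for 3 (15.8%), shares near the 51.7% and 15.8% of all rows, and the median of medians was 1.44. The 3 were Atf4 (7.81), the translation-linked stress factor, Nfe2l2 (4.74), the antioxidant regulator, and Jund (3.96), the Jun gene known for steady rather than induced expression. Jund was thus detected in every cell, with an SD of 1.25. Maf and Mafg were the lowest by mean, detected in 4 and 5 cells. The mean of the list had a Spearman correlation of 0.09 with the member mean over the 14 cells and of -0.24 without cells 4 and 5.

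Genes that signal to the early genes were read next, and few were high. Of 24 MAP kinase and serum response factor genes with a row, 13 (54.2%) reached detection in 7 cells or more, a share near the 51.7% of all rows, and Nras alone did so in every cell. The kinase gene Map2k3 and the GTPase gene Nras were among the highest by mean, with medians of 5.83 and 3.46, while Mapk8 and Rps6ka5 were each detected in 1 cell. Among 24 further genes of feedback and mRNA decay, 15 reached detection in at least 7 cells (62.5%, against 51.7% of all rows), 4 of them in every cell (16.7%, near the 15.8% of all rows). Nfkbia, the inhibitor of NF-kappa-B, had a median of 9.75 and its lowest level, 5.89, in cell 4. Btg1, the relative of Btg2, had a median of 6.22 and Zfp36l2 of 4.96, both found in every cell, while Spred1 and Spry4 were each detected in 3. The mean of this feedback and mRNA decay list had a Spearman correlation of 0.47 with the member mean over the 14 cells. Without cells 4 and 5 it was 0.16.

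The mean of the heat shock genes, which tissue digestion is also known to induce, lay within the range of the other cells in cells 4 and 5. Detection in 7 cells or more was seen for 16 of 18 genes (88.9%, against 51.7% of all rows) and in every cell for 10 (55.6%, against 15.8%). Hsp90aa1, Hsp90ab1 and Hspa5, abundant chaperones, had medians of 8.92, 8.69 and 8.23, and Hsph1 and Hsf1 were detected in 5 and 3 cells. The mean of the list came to 5.39 and 4.92 in cells 4 and 5, against 3.46 to 7.01 in the other cells. Of its 16 genes with a median of 1 or more, 9 (56.25%) were in both cells below the median of the other 12. The share of all such rows was 36.8%. The Spearman correlation of the list mean with the member mean was 0.16 over the 14 cells and 0.21 without cells 4 and 5.

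**Figure D4:**
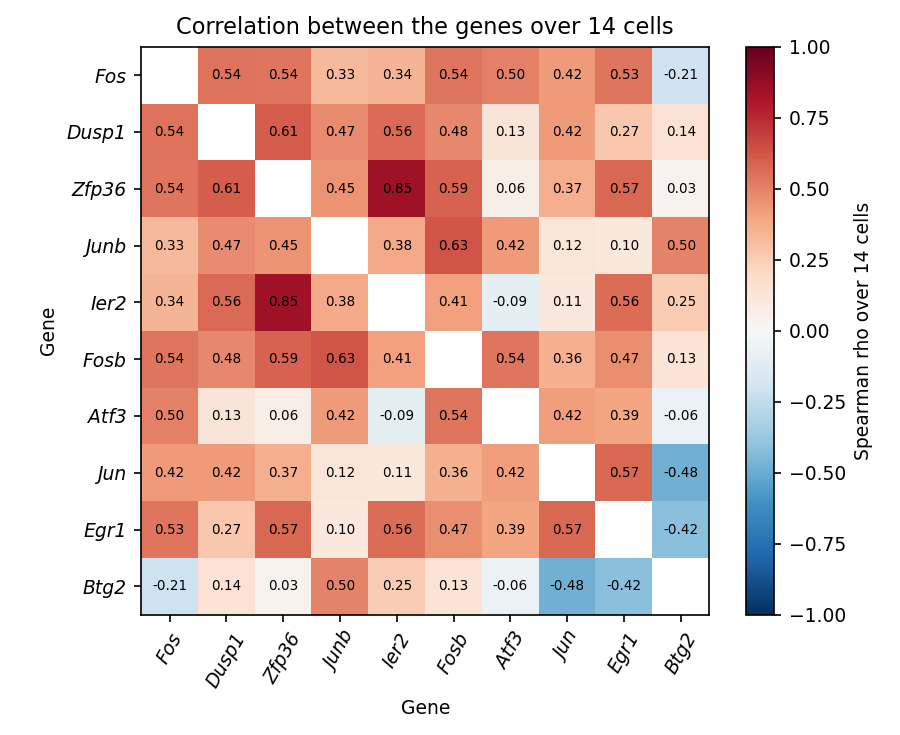
Spearman rho over the 14 cells for each pair of the 10 genes (both axes, ordered by median level). Most pairs are above 0, with Ier2 and Zfp36 highest at 0.85, and the pairs below 0 lie mainly in the row and column of Btg2.

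Whether the members were high in the same cells was described by the Spearman correlation of each of the 45 pairs. The median was 0.42 and 40 pairs were above 0. A value of 0.5 or more was reached by 14 pairs (31.1%), against 5.53% of all pairs of the 4939 rows detected in at least 7 cells, whose median was 0.01. The excess of pairs at 0.5 or more was not seen without cells 4 and 5. These cells are the lowest by the mean of the same members and were left out after seeing the data. A fall in the correlations follows in part from that choice, and nothing is read from its size. Without cells 4 and 5 the median over 12 cells was 0.17, against 0.01 for all pairs, and 33 pairs were above 0. A value of 0.5 or more was then reached by 2 pairs (4.44%), against 6.32% of all pairs. One of them was Ier2 with Zfp36, which had 0.85 over 14 cells and 0.78 over 12, and the other was Fosb with Atf3 at 0.54 in both. The 9 pairs with Btg2 had a median of 0.03, and those with Jun and Egr1 were the lowest, at -0.48 and -0.42. All cells share 1 table and 1 normalization.

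The rows most like the member mean were ranked by the same correlation among 4929 other rows detected in at least 7 cells. Among the first were B2m, the invariant chain of class I antigens (0.91), the membrane protein gene Itm2b (0.81), the Hippo kinase gene Lats2 (0.78) and the chaperone gene Hsp90aa1 (0.75). Further down were Cyhr1, Oaz1, Cd302 and Cst3 (0.75 each) and the interferon regulatory factor gene Irf1 (0.73). B2m ran from 9.45 in cell 6 through 11.29 to 13.82 in cell 12, and without cells 4 and 5 its correlation was 0.88. Without these cells Itm2b and Hsp90aa1 also stayed above 0.7, at 0.78 and 0.79, while Lats2 (0.69), Cd302 (0.64), Cst3 (0.63), Oaz1 (0.62), Cyhr1 (0.60) and Irf1 (0.58) fell below it. The most opposed were Ugp2 (-0.89), which makes UDP-glucose, Rab9 (-0.83), Zfp865 (-0.78), Trappc6a (-0.76) and Fgfr1op2 (-0.75). Ugp2 was highest in cell 5, at 9.45, and lowest in cell 12, at 1.13. In all, 16 rows reached 0.7 or more and 16 reached -0.7 or less, and the median of the rows was 0.01.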

How the data were processed

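The transcripts of 14 picked single cells were measured with a SMART-Seq v4 3′ and a Nextera XT library kit, per the labels' protocols. The submitters' processing notes name TopHat2, Cufflinks and GRCm38. The authors deposited 1 table named for FPKM, whose values are here read as log2(FPKM + 1) with quantile normalization. Neither step is recorded, and both readings rest on the values: at each of the 7304 ranks above 0 in every cell, the cells differed by at most 0.0246. Reads of a 3′ kit do not grow with transcript length, so the FPKM division understates long transcripts. The choice of rows is not recorded either. The plan named a linear FPKM of 1 as threshold, which is 1 on the log2 scale.

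Of the rows, 9544 matched GENCODE M21 by ID, and 0 value columns were left over. Medians, ranges, SDs and Spearman correlations over cells describe these cells only, and the correlation code was tested on simulated data (Python 3.11.15, numpy 2.4.6, scipy 1.17.1). The main transcript was the protein-coding one with the best APPRIS label, then the longest.

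The members, lists and comparisons were chosen with earlier results of these data known. Besides the members, the named genes are the 3 highest and 2 lowest by mean of each pathway list, and the 10 rows most like and 5 most unlike the member mean, without predicted genes. Some genes that this rule names are not reported here. Others (markers of other cells and genes that overlap members) were named where a result turned on them. Alternatives were other thresholds, pseudocounts of 0.1 and 10, length division undone, and cells left out. Length division was undone on the deposited values, after any quantile normalization, so its result is approximate.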

Additional observations from a re-analysis of the deposited data

How the results depend on the processing

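No test was run, so the alternatives show only how far values move. The count of members detected in all cells was 8. With FPKM thresholds of 5 and 10 it was 2 and 1, and with a log2 level of 5 it was 1. It lay between 8 and 9 with each cell left out. Members detected in at least 7 cells numbered 10, and 9 to 10 in at least 50% of cells with each cell left out. Genes of the 5 pathway lists detected in at least 7 cells numbered 85, or 56 with an FPKM threshold of 10 and 38 with a log2 level of 5. The matching shares of all rows at these stricter thresholds are not given. The stricter counts of members and list genes therefore do not show whether these genes still stand out from other rows. The median of the member mean lay between 6.07 and 6.78 with each cell left out, and the median correlation between members between 0.28 (without cell 4) and 0.46. Rows with a correlation of 0.7 or more with the member mean numbered 16, against 28 among all rows and 43 without cells 4 and 5. That last setting, which was chosen after seeing the data, uses fewer cells. For the other changes the cause was not tested. Leaving out cells 4 and 5 changed the sign of the correlation with the member mean for 7 of the 12 other lists (the MAP kinase list went from 0.09 to -0.21, the osteoblast list from 0.27 to -0.16) and of 7 of the 45 member pairs (Jun with Junb from 0.12 to -0.32). No paired analysis was possible because the design holds 1 group. The unknown depth allows no detection limit, so a level near 0 is not shown to be absence.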
